A study of Homo sapiens with 4 samples.

Results

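The genes described here are 10 genes of one lysosomal signalling axis: the Rag GTPases RRAGA, RRAGB, RRAGC and RRAGD, the folliculin complex genes FLCN, FNIP1 and FNIP2, and the MiT/TFE transcription factors TFEB, TFE3 and MITF. They are 10 of the 35606 genes in the count table, and all 10 passed the filter on low counts. The group was selected on the change of RRAGD between the groups, and the other 9 were chosen by their known place in the same pathway, with results of this comparison already known. The values of RRAGD are therefore a description and carry no test, and counts over the members support nothing by themselves. The libraries are poly(A)-selected RNA-seq of K562, an established human leukaemia line that resembles early red cell precursors. One group of 2 libraries comes from K562 labelled as expressing JAZF1-SUZ12, the gene fusion of endometrial stromal sarcoma that joins JAZF1 to the Polycomb subunit SUZ12. The other 2 libraries are from K562 labelled mock. The labels do not say how the fusion was introduced, whether the cells were a clone or a pool, or whether the libraries came from separate cultures, so p-values measure only the spread between these libraries, which may be technical. In such bulk RNA, a change in the number of cells of a kind and a change in RNA per cell cannot be told apart.

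Rag GTPases work as pairs on the lysosome surface, with RRAGA or RRAGB bound to RRAGC or RRAGD. When amino acids are plentiful the pair recruits the kinase mTORC1, and folliculin with its partners FNIP1 and FNIP2 is the GTPase-activating complex that sets the nucleotide state of RRAGC and RRAGD. That state lets mTORC1 phosphorylate TFEB, TFE3 and MITF, which holds them in the cytosol. When released, these factors enter the nucleus and switch on lysosomal and autophagy genes through E-box elements, and RRAGD, FLCN and FNIP2 are themselves known targets in other cells. MITF is best known as the master regulator of melanocytes.

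The Rag genes are close paralogs, so whether short reads can tell them apart bears on every value below. The coding sequences of RRAGA and RRAGB were identical at 83.9% of aligned bases and those of RRAGC and RRAGD at 74.7%, in GENCODE 29 transcripts. The longest stretch that each pair shares is shown in capitals within its surroundings.
RRAGC: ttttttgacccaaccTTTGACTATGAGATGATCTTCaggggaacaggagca
RRAGD: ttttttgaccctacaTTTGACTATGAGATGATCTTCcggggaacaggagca
RRAGA: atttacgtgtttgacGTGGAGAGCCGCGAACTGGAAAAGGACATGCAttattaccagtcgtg
RRAGB: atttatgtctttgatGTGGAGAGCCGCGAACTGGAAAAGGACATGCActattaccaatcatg
The run common to RRAGC and RRAGD was 21 bases long, and that common to RRAGA and RRAGB was 32 bases long. Of all words of 31 bases in its transcripts, RRAGD shared 0.237% with any other gene on the same strand, and RRAGA shared 2 of 1559 words with RRAGB. RRAGC and FLCN are less separable: RRAGC shared 22.5% of its words with AL139260.2, an overlapping transcript that is not a row of the table, and FLCN shared 11.3% with AC055811.2, an overlapping gene with between 0 and 22 counts. The counts of RRAGC and FLCN are less certain for that reason.

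MiT/TFE factors bind the word CACGTG, and the longer word TCACGTGA is the core of the lysosomal element they prefer. RefSeq promoter windows on GRCh38.p14, which run from 250 bases before to 50 bases after an annotated start, were available for 8 of the 10 genes and gave 13 windows. RRAGA and RRAGD had no window in that table. Searched on both strands, CACGTG occurred in the windows of RRAGB, RRAGC and FNIP1, and in 7.26% of all 35116 promoter windows. TCACGTGA, which contains CACGTG, occurred in RRAGB and in 0.98% of all windows. The stretches before the start that hold these words are shown because they lie at genes of the axis itself, with the word in capitals.
RRAGB (chrX:55717609-55717664, plus strand): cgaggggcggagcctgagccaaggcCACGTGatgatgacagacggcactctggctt
RRAGB (chrX:55717698-55717748, plus strand): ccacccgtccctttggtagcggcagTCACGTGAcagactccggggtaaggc
RRAGC (chr1:38859854-38859909, minus strand): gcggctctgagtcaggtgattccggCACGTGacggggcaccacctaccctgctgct
FNIP1 (chr5:131797162-131797217, minus strand): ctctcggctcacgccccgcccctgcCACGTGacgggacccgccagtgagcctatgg
FNIP1 (chr5:131797081-131797136, minus strand): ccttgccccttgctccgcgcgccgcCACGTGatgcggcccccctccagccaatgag
RRAGB held a further CACGTG just after its start, which is not shown. The MITF word TCATGTG, found in 2.92% of all windows, occurred at FNIP2 among these genes. None of the 3 words occurred in the 3 windows of TFEB, in the 3 of MITF, or in those of FLCN and TFE3, which says only that these letters are not in those windows.

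Library totals lay between 17260936 and 24423028 estimated counts. As a check of the labels, JAZF1 was at 33.3 and 29.9 CPM, which is counts divided by the library total and multiplied by 1000000, in the JAZF1-SUZ12 libraries against 0.587 and 1.27 CPM in mock, and SUZ12 at 275 and 269 against 136 and 131 CPM, so both followed the labels. Erythroid identity was clear: the summed level of 15 erythroid genes was 13200 to 13500 CPM in mock and 15200 to 15400 CPM in JAZF1-SUZ12 libraries, and 6 of the 15 were called higher in the edgeR fit (adjusted p under 0.05), beside 13.3% of all genes tested. The 3 of smallest p were HBZ (log2 fold change 0.86), ALAS2 (0.68) and HBE1 (0.24). The source label gives uterus. Of 10 stromal genes 5 were tested, and 2 were at the floor: LUM at 0 and COL3A1 at 3 counts or fewer in every library. PGR had 93 to 147 counts per library, COL1A2 39 to 114 and COL6A3 28 to 64. The summed stromal level was 16.2 to 17.3 CPM in mock and 33.8 to 35.9 CPM in JAZF1-SUZ12 libraries. Most of that rise was COL1A1 alone, at 5.18 and 6.39 CPM in mock and 21.4 and 21.3 CPM with the fusion. COL1A1 was the 1 of 5 tested stromal genes that was called (log2 fold change 1.86, edgeR adjusted p = 8.75e-08), beside 24.7% of all genes tested. Among the genes not tested, PDGFRA and THY1 had fewer counts with the fusion than in mock, and ESR1 had more. The part of these lineage genes in the values below was not tested.

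RRAGD, the C/D-side Rag GTPase that gave the group its name, was near the detection limit in mock and clearly present with the fusion. It lies on GRCh38 chromosome 6, 89364636 to 89412270, minus strand, with 7 exons in its longest transcript. Mock held 2 and 5 counts of it, and each JAZF1-SUZ12 library held 122. In depth-scaled terms these were 0.0978 and 0.235 CPM in mock and 7.07 and 5.0 CPM with the fusion, so the groups were far apart and the shallower fusion library was the higher. Summed over each group the ratio was 34.9, with an exact binomial 95% interval of 16.7 to 87.7 that covers counting error only. Because mock replicate 1 held 2 counts, single ratios were loose: JAZF1-SUZ12 replicate 1 over mock replicate 1 was 72.3 (19.6 to 603), and JAZF1-SUZ12 replicate 2 over mock replicate 2 was 21.3 (8.87 to 66.7). The fit put RRAGD at a log2 fold change of 5.09, which moved to 5.82 when mock replicate 2 was left out and 4.61 when mock replicate 1 was. For RRAGD the authors' deposited table lists 4.10.

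RRAGC, the other C/D-side GTPase, did not pass the test. It lies on chromosome 1, 38838198 to 38859823. Its level was 24.3 and 23.0 CPM in mock and 20.9 and 21.7 CPM in JAZF1-SUZ12 libraries, lower in both fusion libraries without overlap. The log2 fold change was -0.17 with a 95% interval of -0.36 to 0.02 (adjusted p = 0.185, from edgeR's quasi-likelihood fit with Benjamini-Hochberg adjustment over all genes).

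Per kilobase of the longest transcript, the makeup of the C/D pool could be compared across the pair. RRAGD made up 0.224% and 0.567% of the summed RRAGC and RRAGD level in mock, and 15.9% and 11.4% in JAZF1-SUZ12 libraries. The means were 0.395% ± 0.243 and 13.6% ± 3.18 (SD, n = 2 each), as a description with no test. With the median transcript length of each gene in place of the longest, the fusion mean was 10.2%, and with plain counts it was 22.0%. The sum of RRAGC and RRAGD was 8.92 and 8.45 CPM per kilobase in mock and 9.08 and 8.95 in JAZF1-SUZ12 libraries, so that the groups did not overlap but the group means differed by less than the 2 mock libraries did. RRAGC was thus still the larger part of the pool in every library.

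**Figure D1:**
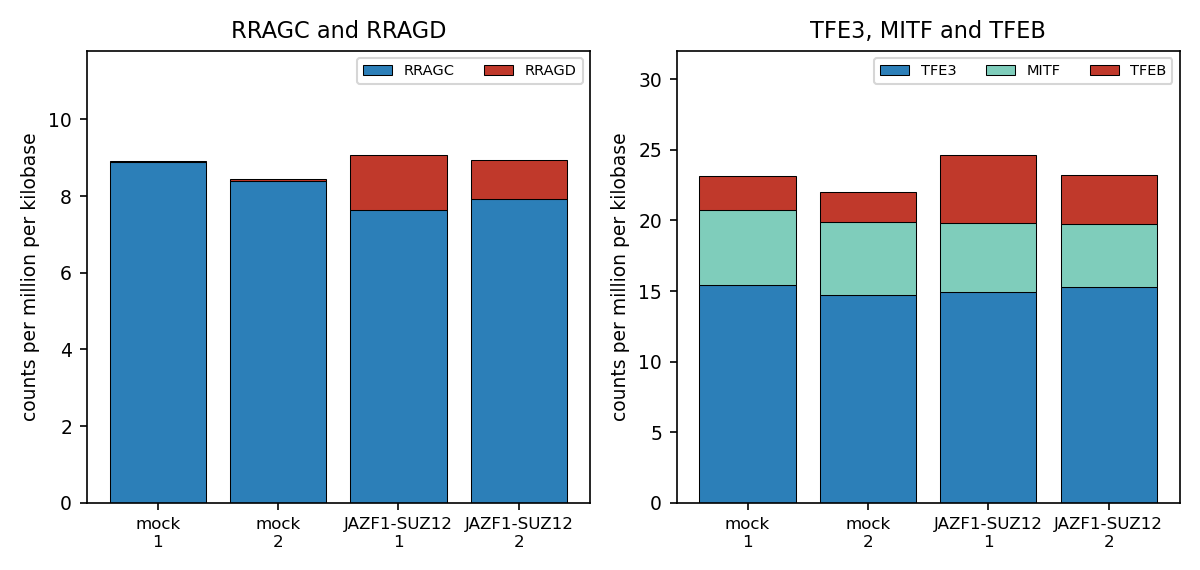
Stacked levels in CPM per kilobase of the longest transcript, 1 bar per library, for RRAGC and RRAGD (left) and for TFE3, MITF and TFEB (right). The RRAGD segment is 0.02 and 0.0479 in mock and 1.44 and 1.02 in JAZF1-SUZ12 libraries, and the TFEB segment is 2.43 and 2.14 against 4.78 and 3.46.

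RRAGA and RRAGB, the A/B-side partners that bind mTORC1, did not pass the test. RRAGA, a single-exon gene on chromosome 9 (19049395 to 19050983), was at 35.9 and 36.0 CPM in mock and 36.9 and 36.3 CPM in JAZF1-SUZ12 libraries. These values sat within about 1 CPM of each other, with both fusion libraries above both mock libraries, and the log2 fold change had a 95% interval of -0.15 to 0.16 (edgeR adjusted p = 0.976). RRAGB, on chromosome X (55717739 to 55758774), had 87 and 88 counts in mock and 99 and 103 in JAZF1-SUZ12 libraries, or 4.26 and 4.13 against 5.74 and 4.22 CPM. The groups overlapped, since JAZF1-SUZ12 replicate 1 alone was higher, and the log2 fold change was 0.21 with a wide interval of -0.27 to 0.69 (edgeR adjusted p = 0.544). RRAGB supplied 8.25% ± 0.167 of the summed A/B level per kilobase in mock and 9.46% ± 1.76 with the fusion (SD, n = 2 each). By median transcript length these shares were 21.5% and 24.1%.

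**Figure D2:**
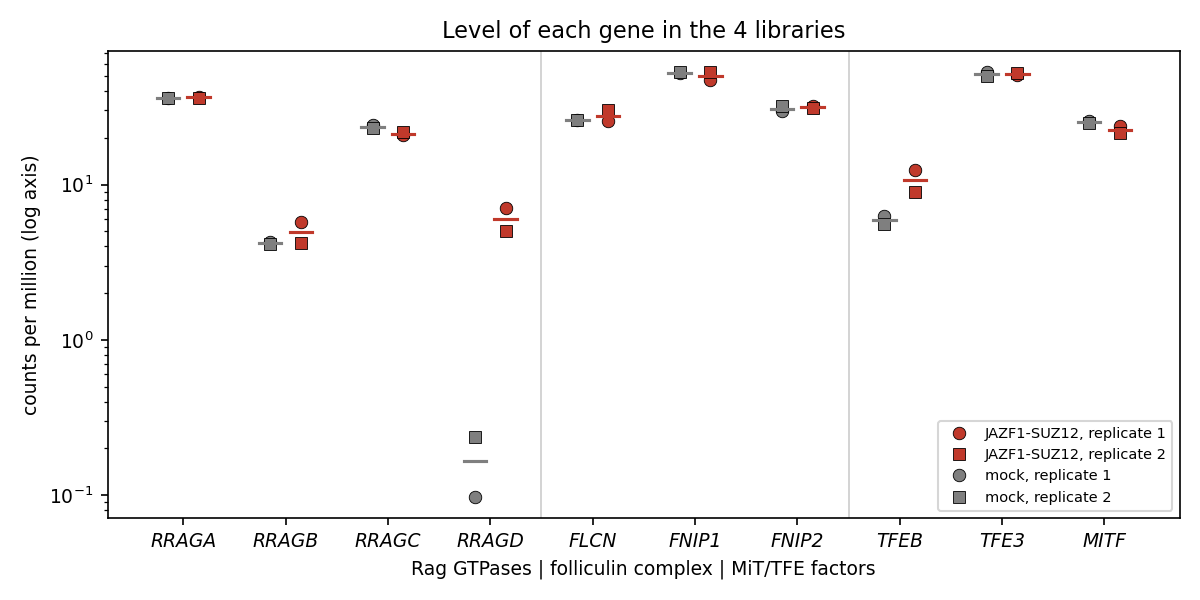
Level of the 10 genes in CPM on a log axis, with 1 point per library (circles replicate 1, squares replicate 2) and a line at the group mean, mock in grey and JAZF1-SUZ12 in red. RRAGD lies at 0.0978 and 0.235 in mock and at 7.07 and 5.0 with the fusion, TFEB at 6.31 and 5.54 against 12.4 and 8.97, and the points of the remaining genes lie close together.

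The folliculin complex genes did not pass the test. FLCN, the catalytic partner, mutated in Birt-Hogg-Dubé syndrome, lies on chromosome 17 (17212212 to 17237188). It was at 25.9 CPM in both mock libraries and at 25.5 and 30.2 CPM in JAZF1-SUZ12 libraries, so the groups overlapped and the fusion libraries differed from each other by more than the group means did. Its log2 fold change was 0.09, with an interval of -0.10 to 0.28 (edgeR adjusted p = 0.524).

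FNIP1, on chromosome 5 (131641714 to 131797063), was at 52.2 and 53.1 CPM in mock and 47.1 and 53.1 CPM in JAZF1-SUZ12 libraries. FNIP2, on chromosome 4 (158769138 to 158908049), was at 29.7 and 31.9 CPM in mock and 31.9 and 31 CPM with the fusion. Both overlapped between groups, and their log2 fold changes were -0.09 (interval -0.23 to 0.06, edgeR adjusted p = 0.382) and 0.01 (interval -0.16 to 0.17, edgeR adjusted p = 0.962). FNIP2 supplied 35.8% ± 0.848 of the summed FNIP level per kilobase in mock and 37.5% ± 2.45 in JAZF1-SUZ12 libraries (SD, n = 2 each). By median transcript length they were 67.3% and 68.9%, so which FNIP gene is the more abundant turns on the length used.

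Among the transcription factors, TFEB rose. TFEB, the factor best known for lysosomal biogenesis, lies on chromosome 6 (41683978 to 41736259, minus strand). It had 129 and 118 counts in mock and 214 and 219 in JAZF1-SUZ12 libraries, which is 6.31 and 5.54 against 12.4 and 8.97 CPM. Both fusion libraries were above both mock libraries, and replicate 1 was the higher of the fusion pair. The rise was 1.76-fold, a log2 fold change of 0.82 ± 0.18 (SE) with an interval of 0.43 to 1.21 (edgeR adjusted p = 0.00399). TFEB stayed past the threshold in the alternative fits with all 4 libraries. Adjusted p-values there ran from 3.11e-05 (edgeR with no filter on low counts) to 0.00946 (DESeq2). A prior count of 2 leaves the p-value unchanged, so that fit could not lose the call. With 1 library left out, the log2 fold change ran from 0.56, without JAZF1-SUZ12 replicate 1, to 1.06. The authors' deposited table lists TFEB at 0.86 with an adjusted p of 0.0676, which misses the 0.05 used here.

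TFE3 and MITF did not pass. TFE3, on chromosome X (49028726 to 49043486), was at 52.7 and 50.1 CPM in mock and 50.9 and 52.2 CPM in JAZF1-SUZ12 libraries, interleaved between groups (log2 fold change -0.02, interval -0.15 to 0.12, edgeR adjusted p = 0.892). MITF, on chromosome 3 (69739435 to 69968337), has several promoters that give tissue-specific forms, which a count per gene does not separate. Its level was 25.8 and 24.9 CPM in mock and 23.8 and 21.4 CPM in JAZF1-SUZ12 libraries, lower in both without overlap, with a log2 fold change of -0.19 and an interval of -0.39 to 0.00 (edgeR adjusted p = 0.149).

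Per kilobase, TFE3 was the main factor of the family in every library. It made up 66.6% ± 0.20 of the summed TFEB, TFE3 and MITF level in mock and 63.2% ± 3.84 in JAZF1-SUZ12 libraries (SD, n = 2 each). TFEB went from 10.1% ± 0.533 to 17.1% ± 3.19, and MITF from 23.3% ± 0.333 to 19.6% ± 0.650. TFEC, the remaining gene of the family and one typical of macrophages, had between 5 and 7 counts in every library and was not tested.

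Ordered by level per kilobase in mock, the 10 genes ran from RRAGA (22.6) through TFE3 (15), RRAGC (8.65), FNIP1 (7.99), FLCN (7.13), MITF (5.26), FNIP2 (4.45), TFEB (2.28) and RRAGB (2.03) to RRAGD (0.0339 CPM per kilobase). With the fusion, RRAGC, FLCN and FNIP1 lay at 7.78 ± 0.208, 7.65 ± 0.911 and 7.60 ± 0.644 CPM per kilobase (SD, n = 2 each), closer together than the spread of FLCN. MITF, FNIP2 and TFEB, at 4.70 ± 0.352, 4.55 ± 0.0904 and 4.12 ± 0.935, were likewise within the spread of TFEB. RRAGD, at 1.23 ± 0.299, was still the lowest of the 10 genes on this scale, below RRAGB at 2.41 ± 0.521. Length is that of the longest GENCODE transcript, so these levels are approximate.

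Of the 9 genes other than RRAGD, 1 was called, meaning an adjusted p under 0.05, and it was higher. The background rate among the 14750 genes tested was 24.7%, made up of 13.3% higher and 11.4% lower, so 1 of 9 is no result about the group. The groups did not overlap in CPM for 4 of the 9 (RRAGA, RRAGC, TFEB and MITF), against 61.0% of all genes tested. The median absolute log2 fold change of the 9 was 0.09, beside 0.17 over all genes. The genes tested include some with far fewer counts than the 9 and were not matched to them by count, so these medians are not like for like. For the 8 genes that were not called, the 95% intervals reached at most 0.69 upwards, in RRAGB, and -0.39 downwards, in MITF.

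**Figure D3:**
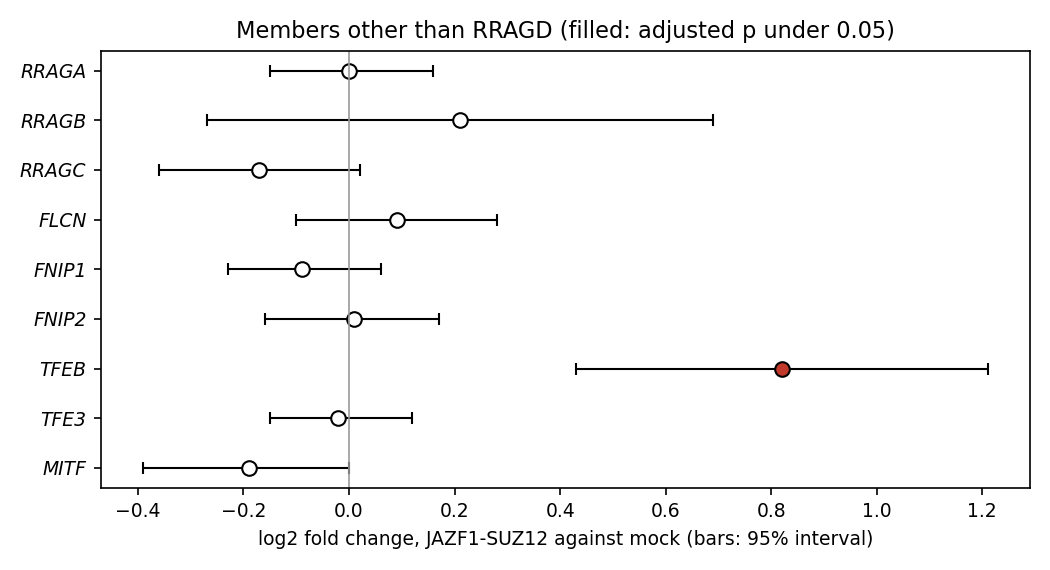
Change with the fusion relative to mock, on the log2 scale, for the 9 genes other than RRAGD, with the 95% interval of the edgeR fit, filled where the adjusted p is under 0.05. TFEB, at 0.82, is the only filled point, and the interval of RRAGB is the widest of the 8 open ones.

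The genes around RRAGD on chromosome 6 were examined for changes of similar size. UBE2J1, an endoplasmic reticulum ubiquitin-conjugating enzyme, ends 11.8 kb from RRAGD and had 1231 and 1306 counts in mock and 1117 and 1499 in JAZF1-SUZ12 libraries (log2 fold change 0.03, edgeR adjusted p = 0.784). On the other side, ANKRD6 starts 20.9 kb away and had 20 and 19 counts in mock and 35 and 40 in JAZF1-SUZ12 libraries (log2 fold change 0.94, edgeR adjusted p = 0.111). Among the 6 nearest tested genes, PM20D2 was called higher (0.51, edgeR adjusted p = 0.00168). MDN1, a ribosome assembly ATPase, was called lower (-0.15, edgeR adjusted p = 0.0309). Over all genes tested 24.7% were called, so these calls are no result about the region. The MDN1 call was lost in 5 of 12 alternative fits (adjusted p 0.0107 to 0.102). SRSF12 and LYRM2, the remaining neighbours, were not called (log2 fold changes 0.84 and -0.06, edgeR adjusted p = 0.443 and 0.563). Each neighbour was below 1 on the log2 scale, against 5.09 for RRAGD. SRSF12, with 2 to 18 counts per library, ranged from 0.08 to 2.54 when 1 library was left out, and ANKRD6 from 0.77 to 1.10.

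**Figure D4:**
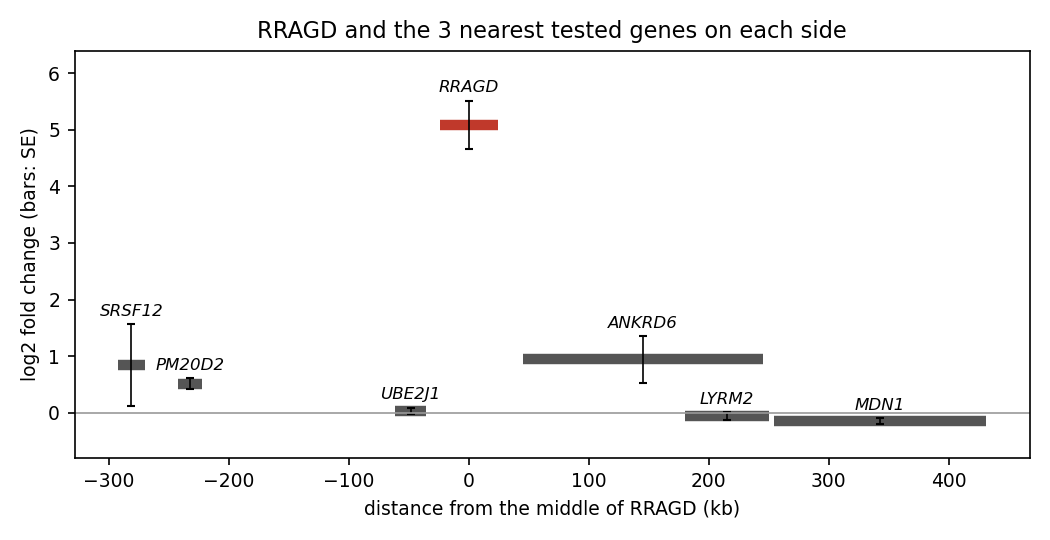
Log2 fold change with its standard error for RRAGD (red) and the 3 nearest tested genes on each side (grey), each drawn as a bar over its extent, against distance in kb from the middle of RRAGD. RRAGD stands at 5.09 while its neighbours lie between -0.15 and 0.94.

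Among 83 genes outside the lists with a mean of at least 50 counts and a mean log2 CPM within 1 of that of RRAGD, the 5 with the nearest log2 fold change were FAM20C (4.99), MSI1 (4.81), MYH6 (4.45), SH3PXD2B (4.08) and EMX1 (4.03). They were selected on this likeness, so their changes are a description. FAM20C encodes a secretory-pathway kinase, MSI1 a neural RNA-binding protein, MYH6 a cardiac myosin heavy chain, SH3PXD2B a podosome scaffold and EMX1 a forebrain homeobox factor. FAM20C was also nearest in log2 CPM over the 4 libraries, at a Euclidean distance of 1.26 from RRAGD, while SH3PXD2B was the farthest of the 5 at 2.46. FAM20C had 0 and 6 counts in mock and 74 and 130 in JAZF1-SUZ12 libraries, and so shared with RRAGD a mock level near the detection limit. With mock replicate 1 at 0, its fitted value is loose and ran from 4.04 to 9.64 over the alternative fits.

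The rest of the pathway was read from 7 lists with 128 genes, of which 122 were tested. Calls numbered 29, or 23.8% of those tested, with 15 higher and 14 lower, beside 24.7% over all genes. The median log2 fold change was -0.04, beside 0.00 over all genes. In the lists 1 called gene, GAA, changed at least 2-fold. Among all 14750 tested, 819 called genes were higher and 18 lower by that much. DESeq2 called 17 of the 122 list genes, beside 2407 of all 14750. Of the list genes, 12 had an adjusted p under 0.05 in the authors' deposited table. Over all genes that table had 784 higher and 567 lower by the same threshold. How many genes had an adjusted p there was not counted, so these counts are not compared as shares. In the lists, directions were mixed, and the median absolute log2 fold change was 0.10, beside 0.17 over all genes, again not matched by count.

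Upstream of the Rag GTPases, Ragulator and SLC38A9, which anchor the Rag pair to the lysosome, had 1 of 6 genes called: LAMTOR3, at -0.21 on the log2 scale (edgeR adjusted p = 0.0399), a call lost in 7 of 12 alternative fits (0.0242 to 0.186). Of 18 GATOR, KICSTOR and sensor genes, 5 were called higher and 1 lower, beside 24.7% called over all genes, and 3 were called without mock replicate 1. SESN3, a sestrin that restrains mTORC1 through GATOR2, was at 13.5 and 11.5 CPM in mock and 25 and 21.1 CPM in JAZF1-SUZ12 libraries (log2 fold change 0.86 ± 0.12 SE, edgeR adjusted p = 9.55e-05). CASTOR2, of the arginine sensor family, was at 25.4 and 25.8 CPM in mock and 36.4 and 34.8 CPM with the fusion (0.45, edgeR adjusted p = 0.000581). The leucine sensor SESN2 was higher by 0.21 on the log2 scale (edgeR adjusted p = 0.0187), lost in 3 of 12 alternative fits (0.00753 to 0.167). The GATOR2 subunit SEH1L, also a nucleoporin, fell by 0.24 on the log2 scale (edgeR adjusted p = 0.00333).

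In mTORC1 and its TSC and RHEB regulators, 1 of 10 tested genes was called, beside 24.7% of all genes tested. MTOR, the kinase itself, was at 145 and 147 CPM in mock and 124 and 132 CPM in JAZF1-SUZ12 libraries, or -0.20 on the log2 scale (edgeR adjusted p = 0.00803). Among 11 genes for 14-3-3 proteins, which retain phosphorylated TFEB and TFE3, and for calcineurin, which releases them, 1 was called higher and 2 lower. These calls were 27.3% of that list, again beside 24.7%. PPP3CA, a calcineurin catalytic subunit, was at 18.2 and 21.6 CPM in mock and 28.7 and 31.1 CPM with the fusion (0.57, edgeR adjusted p = 0.000477). Its regulatory partner PPP3R1 was at -0.18 on the log2 scale (edgeR adjusted p = 0.0333, lost in 3 of 12 alternative fits, 0.00109 to 0.329). The 14-3-3 gene YWHAG was at -0.14 (edgeR adjusted p = 0.0218), lost without mock replicate 2 (0.0697) and otherwise called (lowest 0.00416).

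Downstream, the 26 lysosomal genes usually listed as TFEB targets divided evenly, with 4 called higher, 4 lower and 18 not called. Calls made up 30.8%, beside 24.7% of all genes tested, and the median log2 fold change was -0.07. GAA, the lysosomal acid glucosidase that breaks down glycogen, was at 6.26 and 7.89 CPM in mock and 14.7 and 15.1 CPM in JAZF1-SUZ12 libraries (log2 fold change 1.05 ± 0.15 SE, edgeR adjusted p = 7.96e-05). The protease gene CTSF was at 8.80 and 10 CPM in mock and 16.6 and 18.5 CPM with the fusion (0.88, edgeR adjusted p = 0.000113). In mock these were the 2 genes with the lowest CPM of the 26. CTSD, an abundant aspartic protease, was higher by 0.21 (edgeR adjusted p = 0.0181), a call lost without mock replicate 1, where the log2 fold change was 0.11 (0.298, the highest of 12 fits, the lowest being 0.00177).

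CTSZ, CTSA and LAMP1, the last a main lysosomal membrane protein, had log2 fold changes of -0.20, -0.26 and -0.21 (edgeR adjusted p = 0.00581, 0.0113 and 0.0134). The CTSA call was lost in 2 of 12 alternative fits (0.00344 to 0.07) and that of LAMP1 without JAZF1-SUZ12 replicate 2 (0.00472 to 0.0828). The summed level of the 26 genes was 2500 and 2540 CPM in mock and 2540 and 2560 CPM in JAZF1-SUZ12 libraries, so the groups met at 2540.

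The V-ATPase, the proton pump that acidifies the lysosome, had 1 gene called higher and 3 lower of 21 tested. That is 19.0%, beside 24.7% of all genes tested. ATP6V0E2 was at 31.5 and 36.9 CPM in mock and 45.0 and 46.2 CPM in JAZF1-SUZ12 libraries (log2 fold change 0.39, edgeR adjusted p = 0.00182). Its paralog ATP6V0E1 moved the other way, with 44.4 and 43.5 CPM in mock and 37.1 and 37.7 CPM with the fusion (-0.25, edgeR adjusted p = 0.0123), a call lost in 3 of 12 alternative fits (0.00571 to 0.0794). ATP6V0A1, the membrane-sector a1 subunit, fell by 0.30 on the log2 scale (edgeR adjusted p = 0.000477). ATP6V0B was at -0.18 on the log2 scale (edgeR adjusted p = 0.0373), lost in 5 of 12 alternative fits (0.00668 to 0.285).

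Of 30 autophagy genes tested, 4 were called higher and 2 lower. These 6 calls were a smaller share than the 24.7% called over all genes tested, so their number is no result about autophagy. ULK1, the kinase that starts autophagy and is inhibited by mTORC1, was at 41.7 and 43.2 CPM in mock and 55.6 and 63.3 CPM in JAZF1-SUZ12 libraries (log2 fold change 0.47, edgeR adjusted p = 0.000165). RB1CC1, the scaffold of the ULK1 complex, was at 127 and 112 CPM in mock and 152 and 146 CPM with the fusion (0.30, edgeR adjusted p = 0.00179). GABARAPL1, which is conjugated to autophagosome membranes, was at 17.5 and 16.4 CPM in mock and 24.7 and 24.3 CPM (0.51, edgeR adjusted p = 0.0011). These 3 kept their calls in all 12 alternative fits. BECN1 and VPS18 had log2 fold changes of -0.21 and -0.22 (edgeR adjusted p = 0.0322 and 0.0426), calls lost in 5 and 6 of 12 alternative fits (0.0176 to 0.151 and 0.0162 to 0.343).

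**Figure D5:**
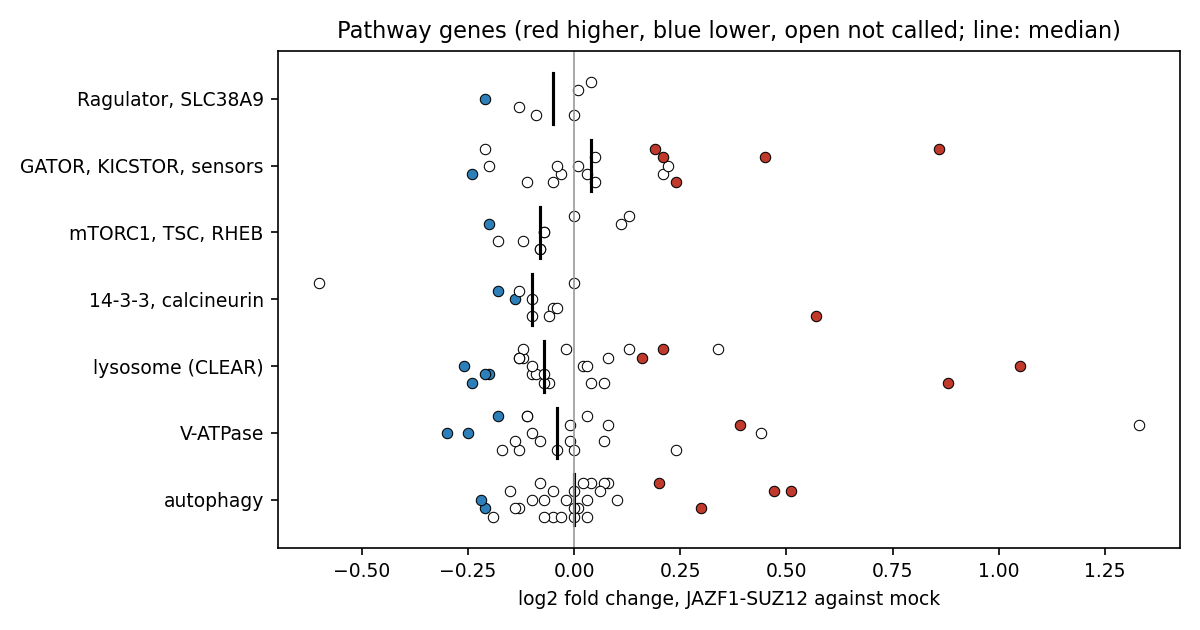
Log2 fold change of each tested gene in the 7 pathway lists, red where called higher, blue where called lower and open where not called, with a line at each list's median. The medians lie between -0.10 and 0.04, and the red points farthest to the right are GAA at 1.05, CTSF at 0.88 and SESN3 at 0.86.

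Genes of lineages in which MITF or TFEC act were mostly near the floor, apart from CD68 and, at 61 to 119 counts per library, CTSK. Of 13 melanocyte genes 6 were tested, TYR and TYRP1 were at 0 in every library, and the summed level was 4.55 to 4.99 CPM in mock and 6.37 to 8.19 CPM in JAZF1-SUZ12 libraries. GPNMB, a lysosomal glycoprotein induced by MiT/TFE factors in other cells, had 10 and 2 counts in mock and 20 and 44 in JAZF1-SUZ12 libraries. Its log2 fold change of 2.33 (edgeR adjusted p = 0.0118) lost its call in 2 of 11 alternative fits (0.000488 to 0.15), at 1.97 when JAZF1-SUZ12 replicate 2 was left out and 1.57 when mock replicate 2 was. Of 12 macrophage and osteoclast genes 6 were tested, and their summed level was 43.3 to 46.4 CPM in mock and 32.8 to 33.4 CPM in JAZF1-SUZ12 libraries. Most of that sum was CD68, a lysosomal membrane glycoprotein that is also expressed outside macrophages, at 38.3 and 40.3 CPM in mock and 24.7 and 25.5 CPM with the fusion (log2 fold change -0.67, edgeR adjusted p = 1.12e-05), while CD14, MARCO, DCSTAMP and OCSTAMP had 3 counts or fewer in every library.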

How the data were processed

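Poly(A) RNA-seq of 4 K562 libraries was analysed, 2 per group. The authors deposited estimated counts per gene, and kallisto 0.46.2, fastp 0.20.1, DESeq2 1.30.1 and hg38 are named per the submitters' processing notes, with no role stated. Their deposited table gives a mean signal (normalized counts), a log2 fold change with its standard error, a test score and p-values, per the file headers; nothing else on it was stated.

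Estimated counts were rounded to whole numbers. Genes were kept by filterByExpr (14750), scaled with TMM and tested across all genes with edgeR 4.0.16 (quasi-likelihood F test, R 4.3.3), two-sided, with Benjamini-Hochberg adjustment and a threshold of 0.05. CPM is the count divided by the library total, times 1000000. Positions and transcript lengths come from GENCODE 29. In simulated counts this fit recovered 189 of 200 genes changed 2-fold among 14459 tested, with 14 false calls. The 200 were drawn from genes with a mean of at least 50 counts, so recovery at lower counts was not measured.

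The members and lists were chosen with earlier results of these data known. Named in the text are all members, the 3 called genes of smallest p-value per list and direction, 3 neighbours of RRAGD on each side and the 5 genes nearest to RRAGD in log2 fold change (mean of at least 50 counts, mean log2 CPM within 1 of RRAGD). Alternatives were other scalings, DESeq2 1.42.0, limma-voom (limma 3.58.1), other filters, a prior count of 2, a threshold of 0.01, the replicate block and leaving out each library. The prior count changes the log2 fold change and not the p-value. That fit is among the alternative fits counted for each gene but could neither lose nor gain a call. The libraries of a group were no copies: chi-square per degree of freedom was 3.86 and 3.61. With 2 libraries a group, an exact permutation test of one value cannot go below 0.333.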

Additional observations from a re-analysis of the deposited data

How the results depend on the processing

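TFEB was the 1 gene called among the 9 members other than RRAGD in each fit with all 4 libraries. The threshold of 0.01 was applied to the main fit only, where TFEB was again the 1 gene called. The 29 calls in the pathway lists became 17 with DESeq2 and 13 at a threshold of 0.01, and the 3643 calls over all genes became 2407 and 2045; the stricter threshold lowers counts by construction, and for DESeq2 the cause was not tested. Genes called lower moved more than genes called higher with DESeq2, from 14 to 6 in the lists and from 1688 to 1051 over all genes. Leaving out JAZF1-SUZ12 replicate 2 gave 8 and 1070 called lower, and leaving out mock replicate 1 gave 9 list genes called higher in place of 15. By list, calls went from 8 to 5 for the lysosomal genes, from 4 to 2 for the V-ATPase, from 6 to 3 for autophagy and from 1 to 0 for Ragulator with DESeq2, from 6 to 3 for the sensors without mock replicate 1, from 3 to 5 for 14-3-3 and calcineurin without JAZF1-SUZ12 replicate 1, and from 1 to 2 for mTORC1 in 5 fits. With 1 library left out, where the lone library is assumed to vary like the others, calls numbered 20 to 30 in the lists (20 without mock replicate 1) and 2568 to 3782 over all genes. The log2 fold change of RRAGD ranged from 4.61 to 5.82 over the same fits and was 4.51 with a prior count of 2, and that of TFEB ranged from 0.56 to 1.06. The RRAGD share of the C/D pool was 0.706% in mock and 22.0% with the fusion from plain counts, and 10.2% with the fusion by median transcript length; leaving out 1 library gave 0.224% to 0.567% and 11.4% to 15.9%. By median length the mock shares of FNIP2 and RRAGB were 67.3% and 21.5%, in place of 35.8% and 8.25%.

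Values near 0 changed sign in genes that were not called. Without a filter on low counts RRAGA was at -0.0048 and FNIP2 at -0.0017 on the log2 scale, and TFE3 was at 0.0072 with total counts only and at 0.0089 over genes with a mean of at least 50 counts. With 1 library left out, RRAGA ranged from -0.0232 to 0.0293, RRAGB from -0.0302 to 0.4422, FLCN from -0.0333 to 0.1807, FNIP2 from -0.0518 to 0.0485, TFE3 from -0.0621 to 0.0117, UBE2J1 from -0.0242 to 0.0815 and LYRM2 from -0.1218 to 0.0015.

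With the replicate block, 32 list genes and 4061 genes in all were called and 1 of the 9 members, TFEB, at 0.81. Same-numbered libraries did not deviate together from their group means (correlation -0.001 over genes), so no shared shift was seen. This 1 correlation cannot tell whether the libraries were made in pairs, and the block is given as a check. Counts were low for RRAGD, with 2 and 5 in mock, and for GPNMB, with 2 to 44, so their fold changes are loose.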

Other observations

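The authors' deposited table and the deposited counts differ for RRAGD and for some other genes. Its mean of normalized counts in the authors' deposited table was 45.4, whereas scaling the deposited counts by median ratios gave 63.4, a ratio of 0.716. Over 14750 genes tested, that ratio had a median of 1 and lay between 0.994 and 1.05 from the 5th to the 95th percentile. It was 1.81 for JAZF1, farther from 1 than for RRAGD, and 0.836 for FAM20C. For JAZF1 the authors' deposited table lists a log2 fold change of 6.82, against 5.05 in the edgeR fit. For TFEB the ratio was 1.01 and for TFE3 and RRAGA it was 1. The step that makes these values differ is not given in the sources used here, and it was not tested.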
